A study of Mus musculus with 2 samples.

Results

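The 6 miRNA genes Mir15a, Mir16-1, Mir15b, Mir16-2, Mir195a and Mir497 lie in pairs at 3 loci and are described here in mouse heart. They were chosen by name as a family, with earlier results of these data known, and are 6 of the 2202 miRNA genes listed. Small RNA below 30 nucleotides was sequenced from hearts of 2 male mice aged 25 days, both of the strain B6CASTF1/J, the first-generation cross of C57BL/6J with the wild-derived CAST strain. One label text writes months after the same 25; the unit of the age label, days, was kept. The mice form 1 group with no treatment or altered allele named, and the only comparison is between the 2 libraries, numbered replicate 1 and replicate 2. The labels give each library its own animal number but list a single donor identifier for both, so the spread between the libraries may be technical. Levels are reads assigned to a gene on its own strand, scaled to a library total of 1000000 (CPM), from 4930853 assigned reads in replicate 1 and 5229819 in replicate 2. 1 read is worth 0.203 CPM in the first library and 0.191 CPM in the second.

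A miRNA is cut from a hairpin transcript and guides a silencing complex to mRNAs that pair with its seed, bases 2 to 8 of the mature strand. The miR-15 family is known for silencing cyclins, checkpoint kinases and the survival factor Bcl2, and so for restraining the cell cycle. In the mouse heart its member miR-195 is known to increase soon after birth, when cardiomyocytes leave the cell cycle, and blocking the family is known to prolong their division. The paired arrangement comes from an ancient duplication, so each locus carries 1 gene whose mature strand resembles miR-15 and 1 whose strand resembles miR-16.

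The mature strands of the 5′ arms are shown because they carry the seed that defines the family. They were taken from RefSeq (GRCm38.p6), in which all 6 genes were matched, and are written 5′ to 3′ with the seed in capitals.
miR-15a-5p, of Mir15a: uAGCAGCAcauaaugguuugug
miR-15b-5p, of Mir15b: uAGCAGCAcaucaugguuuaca
miR-497a-5p, of Mir497: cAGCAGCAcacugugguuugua
miR-16-5p, of Mir16-1 and Mir16-2: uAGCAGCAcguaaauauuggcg
miR-195a-5p, of Mir195a: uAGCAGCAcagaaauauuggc
The seed AGCAGCA is shared by all 5, and is found at bases 2 to 8 in 0.596% of the 1679 mature arms of the table. Beyond the seed the strands were placed in 2 kinds, like miR-15 or like miR-16. Over the first 21 bases miR-195a-5p differs from miR-16-5p at 2 positions, G10A and U11G (the miR-16-5p base first, counted from its 5′ end), whereas miR-15a-5p differs from miR-16-5p at 6. miR-15a-5p differs from miR-15b-5p at 3 positions and from miR-497a-5p at 4, and miR-15b-5p differs from miR-497a-5p at 6. From miR-16-5p miR-497a-5p differs at 10 positions and from miR-195a-5p at 9. The number of differences thus places miR-497a-5p with miR-15a-5p and miR-15b-5p, with which it also shares a stretch printed further on.

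Mir16-1 and Mir16-2 yield the same miR-16-5p, which bears on every count of these 2 genes. Their RefSeq hairpins are printed with the longest run they share, 23 bases, in capitals.
Mir16-1: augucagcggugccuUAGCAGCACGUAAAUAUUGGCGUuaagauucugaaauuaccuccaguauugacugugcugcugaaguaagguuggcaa
Mir16-2: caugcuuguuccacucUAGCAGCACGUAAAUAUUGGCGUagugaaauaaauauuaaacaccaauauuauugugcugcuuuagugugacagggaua
The whole mature strand lies inside that run, so a read of exactly this strand matches both loci. The deposited tables keep reads that match several loci out of the gene counts, at 1.11 reads for each assigned read in replicate 1 and 1.03 in replicate 2, and how many of them are miR-16-5p was not analysed here. The levels of Mir16-1 and Mir16-2 therefore rest on the reads that told the loci apart, and may lie below the true output of these genes. The other 4 members share at most 16 bases with a miRNA gene elsewhere (Mir195a with Mir195b), and no other listed hairpin holds their mature 5′ strand.

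Mir15a (chr14:61632027-61632110, minus strand, mm10) and Mir16-1 (chr14:61631880-61631972, minus strand) lie 54 bases apart within Dleu2, a long non-coding RNA gene. Mir15a overlaps no Dleu2 exon, while 13 bases at the 3′ end of the Mir16-1 hairpin overlap an exon annotated for Dleu2. Mir15b (chr3:69009772-69009835, plus strand) and Mir16-2 (chr3:69009902-69009996, plus strand) lie 66 bases apart in an intron of Smc4, a condensin subunit gene that acts in chromosome packing for mitosis. Mir497 (chr11:70234717-70234800, plus strand) and Mir195a (chr11:70235042-70235135, plus strand) lie 241 bases apart with no host gene on their strand in GENCODE M21. Mir497b overlaps Mir497 on the opposite strand and had 3 counts in replicate 1 and 0 in replicate 2. It was the only other miRNA gene within 10 kb of a member.

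**Figure D1:**
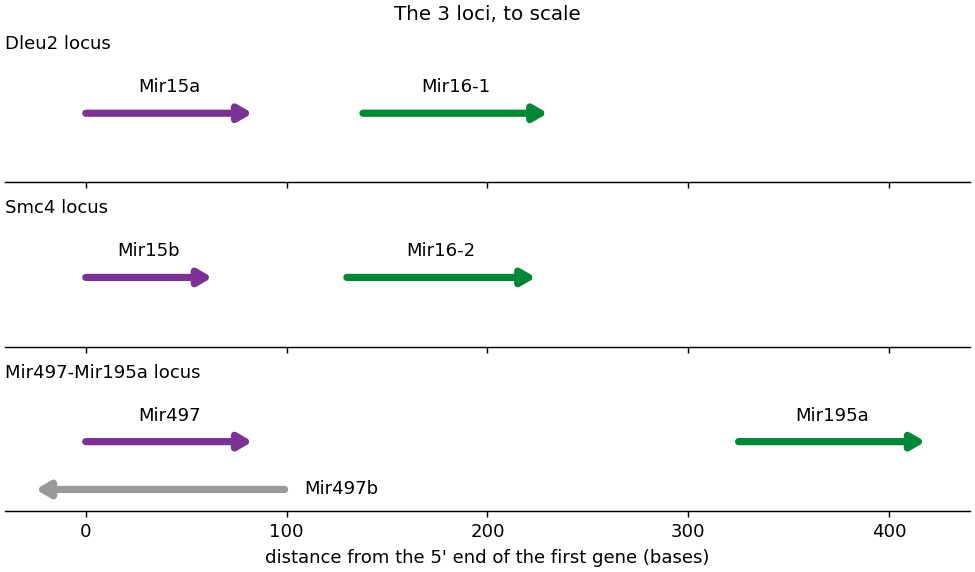
The 3 loci drawn to scale, with the distance in bases from the 5′ end of the first gene on the x axis and each arrow a miRNA hairpin gene pointing in the direction of its transcription. The gene with the miR-15-like strand (purple) precedes the one with the miR-16-like strand (green) at each locus, with gaps of 54, 66 and 241 bases, and Mir497b (grey) overlaps Mir497 on the other strand.

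All 6 genes were detected, meaning at least 10 counts in both libraries, as were 356 of the 2202 listed genes. Together they held 8911 ± 180 CPM (mean ± SD, n = 2), which is 0.878% of assigned reads in replicate 1 (0.870 to 0.887% by the exact Clopper-Pearson interval at 95%) and 0.904% in replicate 2 (0.896 to 0.912%). The summed level was thus 1.03-fold higher in replicate 2 (0.04 on the log2 scale). With the scaling of edgeR's TMM method that log2 ratio was -0.0037, so the direction of the sum depends on the scaling. These intervals cover counting error within 1 library only. No molecular identifiers are named that would mark copies of 1 molecule, so the intervals may be too narrow even for that error. The sum also leaves out reads that match both Mir16 loci.

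Mir15b, the Smc4 gene of the miR-15 kind, led the family in assigned reads. It had 2852 CPM in replicate 1, against 4772 CPM in replicate 2 (14064 and 24959 counts). Its mean of 3812 ± 1358 CPM put it at rank 32 of the 356 detected genes. Mir195a, the member best known from the postnatal heart, followed at 2208 and 1422 CPM (10887 and 7439 counts), a mean of 1815 ± 555 CPM at rank 49. The 2 leaders do not overlap, since the lower Mir15b library lay above the higher Mir195a library.

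Mir16-1, of the Dleu2 locus, had 1915 CPM in replicate 1, against 945 CPM in replicate 2 (9445 and 4941 counts), a mean of 1430 ± 686 CPM. Its partner Mir15a had 895 and 1047 CPM (4411 and 5476 counts), a mean of 971 ± 108 CPM. Their ranges overlap, and Mir16-1 was the higher of the pair in replicate 1 and the lower in replicate 2. Mir16-1 also overlaps Mir195a, though it was below it in both hearts.

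Mir497, the partner of Mir195a, had 604 and 672 CPM (2979 and 3513 counts), a mean of 638 ± 47.8 CPM. Mir16-2 was the lowest member at 309 and 181 CPM (1526 and 944 counts), a mean of 245 ± 91.2 CPM at rank 108. Both genes lay apart from their neighbours in the order, with Mir497 below Mir15a and above Mir16-2 in each heart. The levels and places of Mir16-1 and Mir16-2 leave out reads that match both loci. All 6 means were above 60.3 CPM, the median over detected genes. These levels are not divided by length, the mature 5′ strands being 21 or 22 bases long, and levels of different genes also carry the unequal ligation of small RNAs, whose part in the order was not tested.

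**Figure D2:**
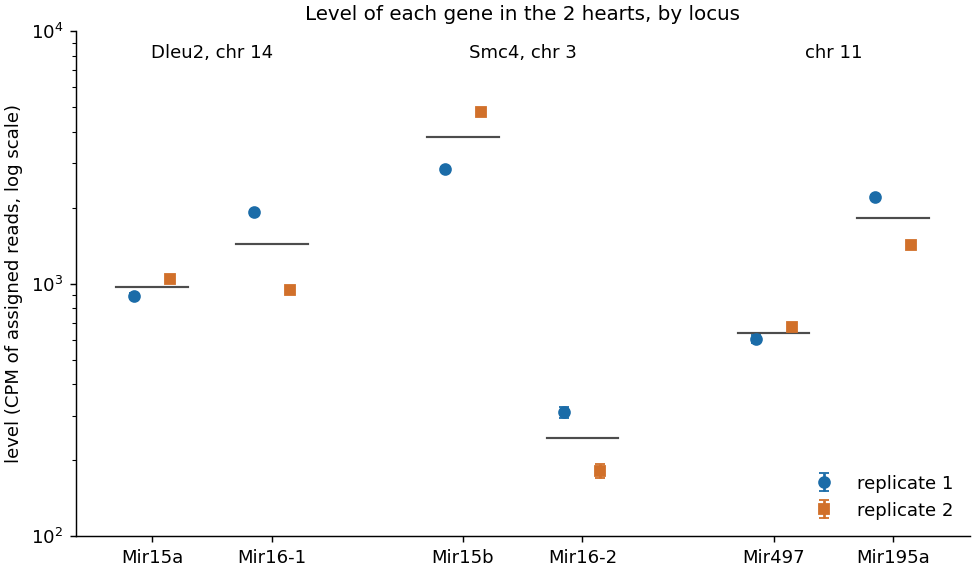
Level of each gene in CPM (log scale) by locus, with circles for replicate 1, squares for replicate 2, exact 95% counting intervals as bars mostly smaller than the symbols, and lines for the mean. Mir15b is highest in both hearts and Mir16-2 lowest, in counts that leave out reads matching both Mir16 loci. At each locus the miR-15-like gene is higher in replicate 2 while the miR-16-like gene is higher in replicate 1.

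In assigned counts, the nearly equal sums of the hearts were made up differently. These counts leave out reads that match both the Mir16-1 and Mir16-2 loci. The shares of Mir16-1 and Mir16-2 may therefore be too low and those of the other genes too high, by an amount not known here. Mir15b supplied 32.5% of the family's counts in replicate 1 and 52.8% in replicate 2. Mir16-1 supplied 21.8% and 10.5%, and Mir195a 25.1% and 15.7%. The shares of Mir15a (10.2 and 11.6%), Mir497 (6.88 and 7.43%) and Mir16-2 (3.52 and 2.00%) were smaller in both hearts. Mir15a, Mir15b and Mir497 together held 49.5% of the family in replicate 1 (exact 95% interval 49.1 to 50.0%) and 71.8% in replicate 2 (71.4 to 72.2%).

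**Figure D3:**
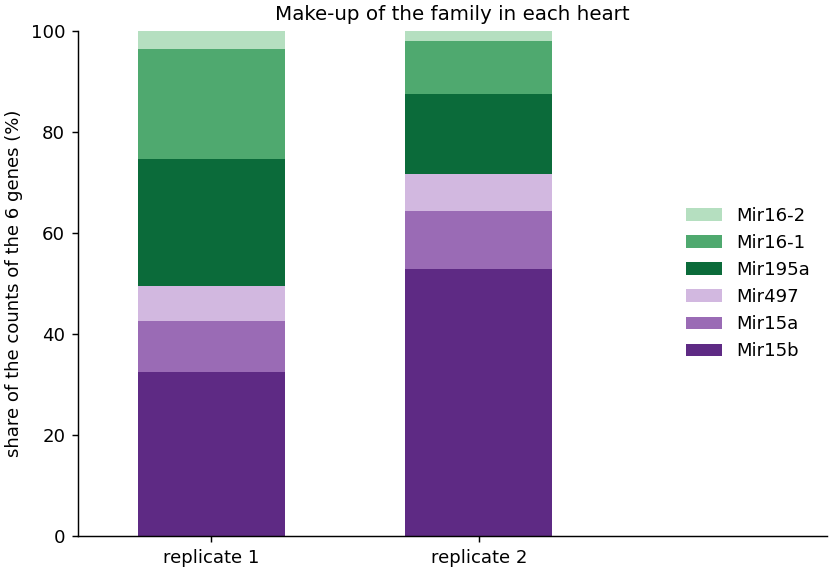
Share of the counts of the 6 genes held by each gene, as stacked bars for the 2 libraries, with the miR-15-like genes in purple and the miR-16-like genes in green. The purple genes make up 49.5% in replicate 1 and 71.8% in replicate 2, mostly through Mir15b. Reads that match both Mir16 loci are not among these counts, so the green shares may be too low.

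Between the hearts, 3 members were higher in replicate 2 and 3 were lower, by an exact binomial test on all detected genes with Benjamini-Hochberg adjustment at 0.05. Over all detected genes 63.5% were called (32.9% as higher in replicate 2 and 30.6% as lower), and the share was 81.1% among genes with at least 100 counts in both libraries, as all 6 members have. That all 6 were called therefore says little about the family. The test compares 2 libraries and covers counting error only, and with 1 library per animal the difference between animals and that between library preparations cannot be told apart.

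Mir15b was 1.67-fold higher in replicate 2 (exact 95% interval 1.64 to 1.71), a log2 ratio of 0.74. Mir15a was 1.17-fold higher (1.12 to 1.22, adjusted p = 2.12e-14, exact binomial test) and Mir497 1.11-fold higher (1.06 to 1.17, adjusted p = 4.45e-05, exact binomial test). These are the 3 genes with a miR-15-like strand, and the differences of Mir15a and Mir497 are small beside the other genes of the libraries. A larger absolute log2 ratio than that of Mir15a was found in 68.8% of detected genes, and than that of Mir497 in 79.5%.

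Mir16-1 was 2.03-fold higher in replicate 1 (1.96 to 2.10), a log2 ratio of -1.02. It was the only member past 2-fold, a size reached by 17.7% of detected genes. Mir16-2 was 1.71-fold higher in replicate 1 (1.58 to 1.86, adjusted p = 3.92e-39, exact binomial test) and Mir195a 1.55-fold higher (1.51 to 1.60, adjusted p = 1.58e-190, exact binomial test). The adjusted p-values of Mir15b and Mir16-1 were too small for the program to return a value other than 0. The log2 ratios of the 6 members ran from -1.02 to 0.74, with a median of -0.24 that lies between genes of opposite direction, against a median of 0.02 over detected genes. All members kept their direction and call with TMM scaling, DESeq2 size factors and scaling to all reads.

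**Figure D4:**
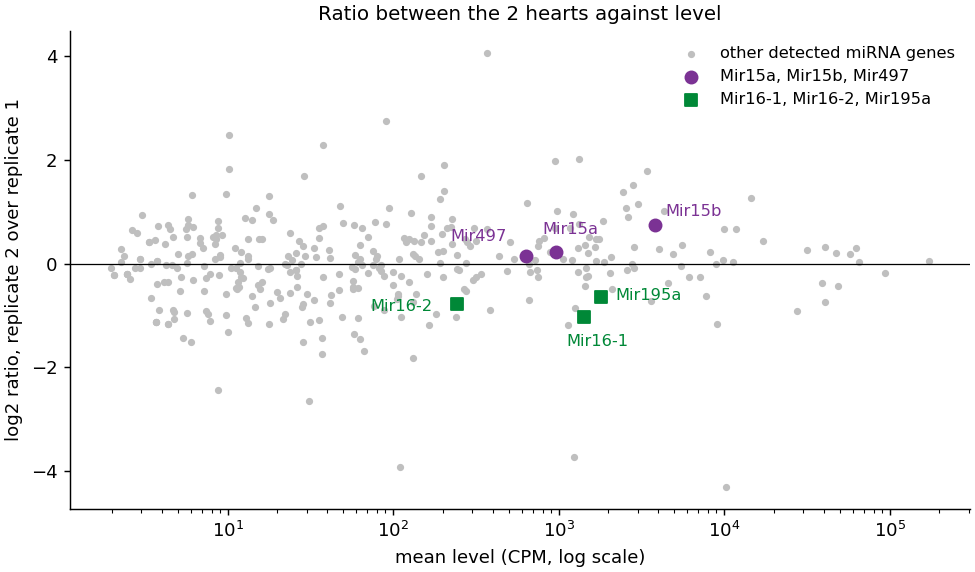
Log2 ratio of replicate 2 over replicate 1 against the mean level in CPM (log scale), 1 point per detected miRNA gene, with the 6 members coloured by kind of mature strand. The members lie between -1.02 and 0.74, the miR-15-like genes above 0 and the miR-16-like genes below it, within the cloud of the other genes.

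The pairs were then compared within each locus, where both genes are thought to be cut from 1 transcript. At Dleu2, Mir16-1 counts were 2.14 times those of Mir15a in replicate 1 (exact 95% interval 2.07 to 2.22) and 0.902 times in replicate 2 (0.868 to 0.938). At Smc4, Mir15b counts were 9.22 times those of Mir16-2 in replicate 1 (8.74 to 9.72) and 26.4 times in replicate 2 (24.8 to 28.2). On chromosome 11, Mir195a counts were 3.65 times those of Mir497 in replicate 1 (3.51 to 3.81) and 2.12 times in replicate 2 (2.03 to 2.20). The ratio of a pair thus differed between the 2 libraries at each locus by more than counting error, the only error these intervals cover. At Dleu2 and Smc4 the Mir16 counts lack the reads that match both Mir16 loci, and the class of reads at several loci was itself larger in replicate 1, at 41.6% of reads against 37.4%; its part in these ratios was not tested.

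In each pair the odds of the miR-15-like gene over its partner were higher in replicate 2. The odds ratio was 2.37 at Dleu2 (p = 5.21e-232), 2.87 at Smc4 (p = 6.20e-139) and 1.73 on chromosome 11 (p = 8.02e-79), by Fisher's exact test, two-sided, adjusted over the 3 loci, which likewise covers counting error between single libraries only. Because both genes of a pair come from 1 library, these ratios do not depend on the scaling. Summed by locus, the hearts differed in both directions: the Smc4 pair had 3162 and 4953 CPM in replicates 1 and 2, the Dleu2 pair 2810 and 1992 CPM, and the chromosome 11 pair 2812 and 2094 CPM. In replicate 1 the 3 sums lay between 2810 and 3162 CPM, while in replicate 2 the Smc4 pair stood above the others. The Smc4 and Dleu2 sums leave out the reads that match both Mir16 loci.

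Each locus holds 1 gene that was higher and 1 that was lower in replicate 2, and the 3 higher genes share a stretch in the 3′ part of the mature strand, as do the 3 lower ones. The strands are printed again with the longest such stretch in capitals, and higher or lower refers to the counts of their genes. Reads of exactly miR-16-5p match both Mir16 loci and are not among those counts. The direction of that strand itself is therefore not known here. This grouping was made after the values were seen, covers 5 strands in 2 libraries, includes Mir15a and Mir497 with their small differences, and was not tested.
miR-15a-5p, higher in replicate 2: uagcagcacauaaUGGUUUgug
miR-15b-5p, higher in replicate 2: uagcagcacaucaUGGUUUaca
miR-497a-5p, higher in replicate 2: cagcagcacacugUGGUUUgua
miR-16-5p, lower in replicate 2: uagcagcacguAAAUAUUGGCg
miR-195a-5p, lower in replicate 2: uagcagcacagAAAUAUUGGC
The letters UGGUUU, searched on the strand of the miRNA, occur in 20 of 1679 mature arms (1.19%), and AAAUAUUGGC in 2 arms (0.119%), those of miR-16-5p and miR-195a-5p. Their reverse complements occur in 8 and 0 arms. Of 6 other detected genes with UGGUUU anywhere in an arm, 1 was higher and 2 were lower in replicate 2. The rest were not called, and the median log2 ratio of the 6 was -0.08. A link between these letters and the direction was not tested. Over all detected genes 32.9% were higher and 30.6% lower. The counts do not separate the arms of a hairpin, so which arm the reads came from is not known here. The GC content of the mature 5′ strands was 40.9% for miR-15a-5p and miR-15b-5p, 50.0% for miR-497a-5p, 45.5% for miR-16-5p and 42.9% for miR-195a-5p.

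Of the 11 genes in the RefSeq table with the seed AGCAGCA, 5 are not members. Mir322, on the X chromosome (chrX:53054255-53054349, minus strand), was the only one of them detected, and its mature strand is shown as the other abundant carrier of the seed.
miR-322-5p: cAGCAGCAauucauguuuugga
Mir322, the mouse counterpart of human miR-424, had 5187 and 4024 CPM in replicates 1 and 2, a mean of 4606 ± 823 CPM. It was thus above Mir15b in replicate 1 and below it in replicate 2, and it was lower in replicate 2 (log2 ratio -0.37, adjusted p = 7.16e-164, exact binomial test). With Mir322, genes with this seed held 1.40% and 1.31% of assigned reads, again without the reads that match both Mir16 loci. Mir195b had 1 count in replicate 1 and 0 in replicate 2, and Mir6342, Mir6353 and Mir6419 had 0 in both, and a count of 0 allows a level of up to 0.608 CPM in the first library or 0.574 CPM in the second.

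Other miRNAs tied to the cell cycle were set beside the family as lists. Of the miR-17/92 cluster and its paralogs, which are known to promote proliferation, 11 of 15 genes were detected, 10 were lower in replicate 2 and 1, Mir20b, was not called, where 30.6% of all detected genes were lower. Their median log2 ratio was -0.59, against 0.02 over all detected genes. Mir93 led them at 9409 and 6141 CPM, followed by Mir92-1 at 2462 and 1760 CPM and Mir17 at 2159 and 1906 CPM. Of the let-7 and miR-34 genes, which are known to restrain growth, 14 of 15 were detected, 9 higher and 4 lower in replicate 2, where 32.9% of all detected genes were higher and 30.6% lower, with a median of 0.20; with TMM scaling or scaling to all reads they were 8 higher and 5 lower. Mirlet7i (99266 and 88157 CPM) and Mirlet7g (64250 and 66126 CPM) were the most abundant of these in assigned reads. Each was above the summed level of the 6 members. Both lists hold genes in duplicate copies, such as those of Mirlet7a, Mirlet7c, Mirlet7f, Mir92 and Mir19b. Reads that match several loci are missing from their counts, so their levels and places may be too low. The total share called in either list, 10 of 11 and 13 of 14, stands beside 63.5% over all detected genes and 81.1% among genes with at least 100 counts in both libraries.

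For each member the 2 detected genes nearest in level over both libraries were found, by distance in log2 CPM. Mir10a (0.26) and Mir106b (0.44) were nearest to Mir16-1, Mir92-1 (0.34) and Mir17 (0.42) to Mir195a, and Mir128-1 (0.20) and Mir433 (0.32) to Mir16-2. Mir27b (0.28) and Mir320 (0.36) were nearest to Mir15b, Mir411 (0.17) and Mir181b-2 (0.20) to Mir15a, and Mir532 (0.14) and Mir379 (0.24) to Mir497. No member was among the nearest of another, its locus partner included. With 2 libraries this likeness is a description of levels alone.

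The libraries also differed in markers of the cells a heart sample holds. Of 8 cardiomyocyte genes, 5 were detected, with Mir208a at 1361 and 3562 CPM, Mir499 at 2933 and 2758 CPM, Mir208b at 191 and 192 CPM, Mir1a-2 at 41.2 and 34.4 CPM and Mir1a-1 at 2.84 and 2.29 CPM. Mir133a-1 and Mir133a-2, known as leading miRNAs of heart muscle, and Mir133b lay between 0.608 and 5.74 CPM. The Mir1a and Mir133a genes exist in duplicate copies, so reads that match several loci are missing from their counts, as they are for the neuronal Mir124a genes, which had 0 counts and say nothing of neurons here. Of 3 red blood cell miRNAs, 2 were lower in replicate 2, Mir451a with 19490 and 986 CPM and Mir144 with 2321 and 175 CPM, while Mir486, also known from muscle, had 731 and 1173 CPM. The summed list stood at 2.25% of assigned reads in replicate 1 and 0.233% in replicate 2. Among detected genes of the other lists, 3 of 3 endothelial genes and 4 of 5 of fibroblasts and smooth muscle were higher in replicate 2. So were 3 of 5 leukocyte genes and 1 of 5 cardiomyocyte genes, Mir208a. The leukocyte gene Mir142 and the cardiomyocyte gene Mir499 were lower. With TMM scaling or scaling to all reads, 2 leukocyte genes were lower. Beside these counts stand 32.9% of all detected genes called higher in replicate 2 and 30.6% called lower. By sums the endothelial list held 5.78 and 7.20%, the fibroblast and smooth muscle list 3.34 and 4.60%, the leukocyte list 0.544 and 0.644% and the cardiomyocyte list 0.453 and 0.656%. Of the members, Mir16-1, Mir16-2 and Mir195a were lower in replicate 2, as Mir451a and Mir144 were. Mir15a, Mir15b and Mir497 were higher, as Mir486 of the same red blood cell list was. The part of cell content in these differences was not tested, and in whole tissue fewer cells of a type and less RNA per cell cannot be told apart.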

How the data were processed

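The authors deposited 1 table of whole-number read counts per miRNA gene for each library, with an unstranded column and 1 for each strand. Text deposited with the files names mm10 as the build and GENCODE M21 as the annotation; an aligner or counting program is not given in the sources used here. CAST alleles were counted against the C57BL/6J build. Replicate 1 held 13210462 reads and replicate 2 14363882, of which 37.3% and 36.4% were assigned to a gene on its own strand, while reads at several loci took 41.6% and 37.4%, unmapped reads 15.0% and 20.2%, and reads in no miRNA gene 6.03% and 6.00%; these last 3 classes stayed out of totals and tests.

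All 2202 identifiers matched GENCODE M21. Counts of the gene's own strand were scaled to CPM, and log2 values used a pseudocount of 0.5 counts. Genes with at least 10 counts in both libraries were compared by a two-sided exact conditional binomial test against the libraries' totals, because 1 group leaves edgeR's quasi-likelihood test no contrast. Intervals are exact at 95%. The test was tried on simulated counts with counting error only, which cannot show how it behaves with differences between animals or preparations. Software was Python 3.11.15 with scipy 1.17.1, edgeR 4.0.16 and DESeq2 1.42.0 in R 4.3.3.

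The members, lists and tests were chosen with earlier results of these data known. Named genes are the members, miRNA genes within 10 kb, genes with the same seed, the 2 detected genes nearest to each member, and the leading genes of the lists and cell type markers. Alternatives changed the strand column, the scaling, the count minimum and the library left out.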

Additional observations from a re-analysis of the deposited data

Results flagged for a closer look

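Signal appeared in reads that no comparison uses. Reads placed at several loci made up 41.6% of replicate 1 and 37.4% of replicate 2, and Mir16-1 and Mir16-2, which share a run of 23 bases with the whole of miR-16-5p inside it, are the members with a mature strand at more than 1 locus.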

How the results depend on the processing

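Over the alternatives that changed the strand column, the scaling and the count minimum (1 or 100 counts in both libraries, or 1 in either), 41 log2 ratios of members were recomputed and all 41 kept their direction and call. The count minimum cannot change a log2 ratio. Scaling and strand column moved the ratios of the members by a common small shift, so these are not 41 separate checks. The log2 ratio of Mir497 ranged from 0.11 to 0.15, with a largest adjusted p of 0.00502 by the exact binomial test, and that of Mir16-1 from -1.06 to -1.01. The summed level of the members was 11391 CPM with unstranded counts and 3285 CPM when scaled to all reads. Apart from Mir497, the members had the same counts in the unstranded column, so that sum is higher through a smaller assigned total. Leaving out 1 replicate only returns the summed level of the other, 8784 CPM in replicate 1 and 9039 CPM in replicate 2. Unstranded counts list Mir497 at 0, since its reads overlap Mir497b and become ambiguous, so no ratio of it or of its pair could be had with them. The log2 ratio of the sum, an alternative chosen after seeing the data, was 0.04 as reported, 0.02 with DESeq2 size factors, 0.0055 with scaling to all reads and -0.0037 with TMM. No paired analysis was possible because there is 1 group. Depth does not limit these genes, the lowest of which had 944 counts in a library, but it does limit the genes with the same seed that were at 0.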
